A study of Mus musculus with 6 samples.

Results

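The carbonic anhydrases are the enzymes that turn carbon dioxide and water into bicarbonate and a proton, and back again. Their transcripts were described here in C2C12 cells, an established mouse line of myoblasts, which can fuse into myotubes. A total of 10 genes, Car2, Car3, Car4, Car5b, Car6, Car8, Car9, Car12, Car13 and Car14, were taken by their symbols from the 22375 rows of the table. The set was selected on measured values, because Car6 was far lower in the stretched cells, so the differences of these 10 genes between the groups are given as a description, with no p-value, and support nothing. Another 6 carbonic anhydrase genes of the table, Car1, Car5a, Car7, Car10, Car11 and Car15, were outside the set and are used for comparison.

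RNA-seq covered 3 libraries of the CON group, C2C12 cells without stretching, and 3 libraries of the 4H group, C2C12 cells under cyclic stretch at 15% elongation for 4 h. All 6 libraries came from the same cell line, and the labels name no genetic change and no agent other than stretch for either group. The libraries are labelled as replicate biosamples 1 to 3 of each group and are numbered so here, although the titles of the 4H libraries carry the numbers 1, 3 and 4. Nothing in the labels says whether they came from separate cultures, so the spread between them may be technical. Values are FPKM, fragment numbers scaled to transcript length and to the mapped fragments of the library, which allows levels to be compared between genes per length but does not hold the sequencing depth. FPKM summed to 395790 to 397260 per CON library and to 385146 to 387516 per 4H library, and 14125 to 14186 rows were above 0 in the CON libraries against 14899 to 14972 in the 4H libraries. The 6 markers of myoblasts were all expressed, with a summed level of 173 to 180 FPKM in the CON group and 249 to 262 in the 4H group, most of it Des and Itga7. At an adjusted p of 0.05 or less from limma, 5 were higher and 1 lower, where 22.6% of all genes tested were higher and 24.1% lower. Myod1 was called higher (log2 fold change 1.74, adjusted p = 1.56e-06 from limma). Myf5 was the lower gene (-0.67, adjusted p = 0.000347 from limma), and both are factors that set the myoblast fate. Of the 8 markers of myotubes, 1 was high enough to be tested, and their summed level was 1.10 to 1.21 FPKM in the CON group and 1.25 to 1.81 in the 4H group. Among them Mymk and Tnnt3 were higher in the 4H group and Myog and Myh1 lower, each without overlap and all but Mymk below the filter. In bulk RNA, fewer cells that express a gene and less of its RNA per cell cannot be told apart.

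As background, carbonic anhydrases of mammals carry a zinc ion in the active site, held by histidine residues, and differ mainly in where they work. Car2, Car3 and Car13 are enzymes of the cytosol, and Car3 is abundant in mature slow muscle. Car5b is imported into mitochondria and Car6 is secreted, chiefly in saliva. Car4, Car9, Car12 and Car14 sit at the cell surface with the active site facing outwards, where they act together with bicarbonate transporters and proton-coupled lactate transporters in the control of pH. Car8 is a related protein of the cytosol without the enzyme activity, known for its binding to the inositol trisphosphate receptor. Car9 and Car12 are known targets of the hypoxia-inducible factors (HIF), and a form of Car6 that stays inside the cell is known as a stress-induced target of the transcription factor CHOP, the product of Ddit3.

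The active site is printed to show what the 10 genes share and where Car8 departs from the enzymes. Each line gives 21 bases of coding sequence, 5′ to 3′, from the GENCODE M21 transcripts of mouse build GRCm38, and the capitals mark the codons aligned to codons 94 and 96 of Car2, which encode the first and second zinc-binding histidine.
Car2: cagtttCACtttCACtggggc
Car3: caattcCATcttCACtggggc
Car13: cagttcCATttgCACtggggg
Car5b: cagtttCATtttCATtgggga
Car6: gcctttCACtttCACtggggg
Car4: cagttgCACctgCACtggtca
Car9: cagttgCATctaCACtgggga
Car12: cagctgCACttgCACtggggg
Car14: cagctcCACctgCACtggggt
Car8: gaagttAGAtttCACtgggga
In Car2, Car3, Car13, Car5b, Car6, Car4, Car9, Car12 and Car14 both of these codons, CAC or CAT, encode histidine, and the codon aligned to codon 119 of Car2 does so too, so that 3 of 3 were present. Car8 has the arginine codon AGA in place of the first of them and holds 2 of 3. The codon tgg after the second of them is shared by all 10 genes, and most of the other bases in lower case vary. Along their transcripts, 0.525% of the 75-base stretches of Car5b recur in transcripts of other genes, and none of those of the other 9 genes do.

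Car6 (ENSMUSG00000028972, GRCm38 chr4:150187015-150201332, minus strand) was the gene of the set that differed most. Its level was 33.3, 26.0 and 29.1 FPKM in the CON libraries and 0.537, 1.07 and 1.83 FPKM in the 4H libraries. The groups did not overlap, and the highest 4H library was far below the lowest CON library. The means were 29.5 ± 3.64 and 1.15 ± 0.65 FPKM (SD, n = 3 each), so the 4H group held 3.89% of the CON level, a 25.7-fold lower mean. On the scale of log2(FPKM + 0.5) the difference was -4.26 (SE 0.26), and it lay between -4.54 and -3.96 with each library left out in turn. With a pseudocount of 0.1 in place of 0.5 it was -4.70. Genes whose 6 libraries averaged 0.5 FPKM or more were tested, 11593 in all, and 0 of them had a larger fall on this scale. The rank depends on the pseudocount, since by the ratio of mean FPKM 7 of these genes had a lower value than Car6, among them P2rx3, whose mean was 29.7-fold lower.

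The place of Car6 among all transcripts moved with this difference. In the CON group its mean level was above that of 77.2% of the genes tested, and 2645 genes lay above it. In the 4H group its mean was above that of 6.24%. The libraries of the 4H group also varied more among themselves in relative terms, with a coefficient of variation of 56.7% against 12.4% in the CON group. The counting error at the low 4H level is unknown, and its part in this spread was not tested. The 4H replicate 3 held the highest remaining level and 4H replicate 1 the lowest.

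**Figure D1:**
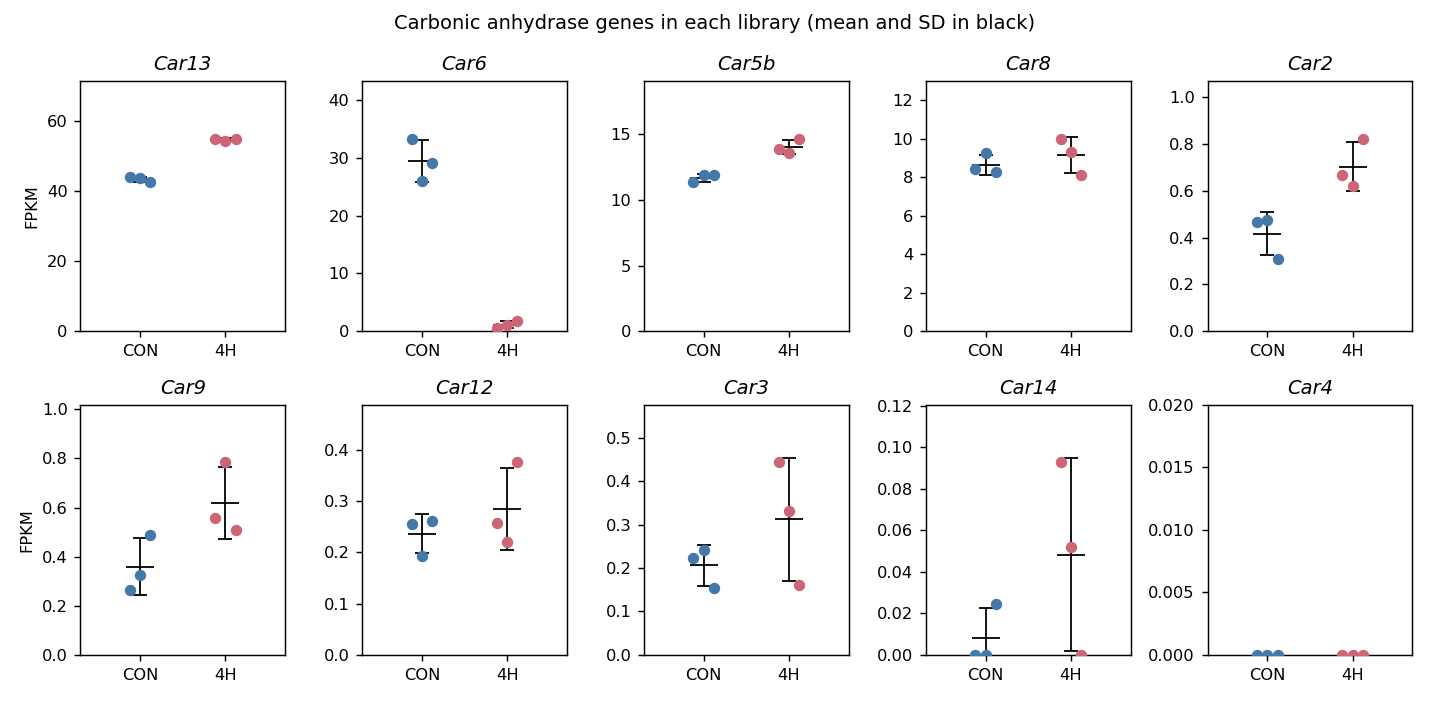
FPKM of each of the 10 carbonic anhydrase genes (vertical axis, a separate scale for each gene, starting at 0) in the 3 CON and 3 4H libraries, with points for libraries and black lines for the mean and SD. Car6 lies between 26.0 and 33.3 FPKM in the CON group and between 0.537 and 1.83 in the 4H group, Car13 and Car5b lie somewhat higher in the 4H group, and Car4 is at 0 in all 6 libraries.

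Car6 has 4 transcript models in GENCODE M21, of which 2 are protein coding. The longer coding model starts at position 150201332 of chromosome 4, and the shorter one starts 2862 bases downstream, at position 150198470. The values are per gene, so the transcripts from these starts cannot be told apart here. Car6 shares no exon bases with another annotated gene.

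The promoters of Car6, a form of which is a known CHOP target, and Car9, a known HIF target, are printed. These genes were on opposite sides of the comparison. Each is 300 bases from RefSeq on build GRCm38.p6, 250 before and 50 after the annotated start, 5′ to 3′ on the strand of the gene. Car6 lies at chr4:150201086-150201385 on the minus strand and Car9 at chr4:43506776-43507075 on the plus strand. The start that RefSeq gives for Car6 lies downstream of that of the longer GENCODE model. The window does not reach the start of the shorter model and says nothing about it. The capitals mark matches to the motifs searched.
Car6: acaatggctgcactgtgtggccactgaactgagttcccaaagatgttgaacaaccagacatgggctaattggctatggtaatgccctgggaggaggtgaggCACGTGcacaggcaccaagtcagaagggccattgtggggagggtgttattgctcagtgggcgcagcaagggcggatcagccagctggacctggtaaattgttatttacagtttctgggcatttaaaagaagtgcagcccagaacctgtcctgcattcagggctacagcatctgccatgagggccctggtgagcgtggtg
Car9: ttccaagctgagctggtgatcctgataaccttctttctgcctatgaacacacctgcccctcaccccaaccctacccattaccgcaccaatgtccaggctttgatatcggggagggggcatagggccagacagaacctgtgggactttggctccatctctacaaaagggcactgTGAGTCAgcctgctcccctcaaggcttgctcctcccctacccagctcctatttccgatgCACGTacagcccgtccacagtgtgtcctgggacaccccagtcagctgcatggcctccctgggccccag
Searched on both strands were ACGTG, the core of the hypoxia response element, TGATGNAAT, a composite element of ATF4 and C/EBP factors, TGCAAT, a core bound by CHOP with C/EBP factors, and TGANTCA, the AP-1 element. The Car6 window held the palindrome CACGTG, in which ACGTG reads on both strands, from position -149, counted from the start, and no match to the other motifs. The Car9 window held ACGTG on the minus strand from position -18, and TGAGTCA, a match to TGANTCA, from position -77. A promoter entry existed for 6 of the 10 genes. Of the 4 of these that are not printed, Car14 and Car4 also held ACGTG while Car5b and Car12 held no match. Of 32851 promoters of the same length, 19.6% held ACGTG, 0.965% TGATGNAAT, 8.4% TGCAAT and 7.81% TGANTCA. The matches describe these windows and are not evidence of binding.

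Car13 (ENSMUSG00000027555, chr3:14641727-14663002, plus strand), an enzyme of the cytosol, was the most abundant of the 10 genes in both groups. Its level was 44.0, 43.8 and 42.5 FPKM in the CON libraries and 55.0, 54.2 and 54.9 FPKM in the 4H libraries. The groups did not overlap, and the 4H libraries lay within 1 FPKM of each other. The means were 43.4 ± 0.77 and 54.7 ± 0.42 FPKM, a ratio of 1.26, and the log2 difference was 0.33 (SE 0.03). In absolute terms the mean was 11.3 FPKM higher in the 4H group, against 28.3 FPKM by which that of Car6 was lower.

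The other enzymes of the cytosol were expressed at low levels. Car2 (ENSMUSG00000027562, chr3:14886273-14900770, plus strand), the fast and widely expressed enzyme, was at 0.466, 0.475 and 0.310 FPKM in the CON libraries and 0.669, 0.620 and 0.823 FPKM in the 4H libraries. All 4H libraries were above all CON libraries, with means of 0.417 ± 0.09 and 0.704 ± 0.11 FPKM and a ratio of 1.69. Its mean over the 6 libraries, 0.561 FPKM, was just above the filter, and its log2 difference depended on the pseudocount, 0.39 (SE 0.15) with 0.5 and 0.65 with 0.1. Car3 (ENSMUSG00000027559, chr3:14863512-14872523, plus strand), the enzyme of mature muscle, was at 0.223, 0.242 and 0.153 FPKM in the CON libraries and 0.443, 0.332 and 0.162 FPKM in the 4H libraries. Its ratio of means was 1.51, but 4H replicate 3 lay within the CON range, so the groups overlapped. Without 4H replicate 1 the ratio was 1.20. Car2, Car3 and Car13 lie on the same chromosome, within a stretch bounded by the start of Car13 at 14641727 and the end of Car2 at 14900770.

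Car5b (ENSMUSG00000031373, chrX:163976822-164027997, minus strand), the mitochondrial enzyme, was at 11.4, 11.9 and 11.9 FPKM in the CON libraries and 13.9, 13.6 and 14.7 FPKM in the 4H libraries. The groups did not overlap, with means of 11.7 ± 0.30 and 14.1 ± 0.55 FPKM, a ratio of 1.20 and a log2 difference of 0.25 (SE 0.05). Car8 (ENSMUSG00000041261, chr4:8143362-8239041, minus strand), the related protein without the first zinc-binding histidine, was at 8.44, 9.25 and 8.28 FPKM in the CON libraries and 10.0, 9.30 and 8.14 FPKM in the 4H libraries. Its groups overlapped, since 4H replicate 3 was below all CON libraries and 4H replicates 1 and 2 were above them. The means were 8.65 ± 0.52 and 9.15 ± 0.94 FPKM, a ratio of 1.06.

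The genes of the cell surface enzymes were all below 1 FPKM. Car9 (ENSMUSG00000028463, chr4:43506966-43513729, plus strand) was at 0.265, 0.324 and 0.488 FPKM in the CON libraries and 0.559, 0.783 and 0.509 FPKM in the 4H libraries. The groups did not overlap, although 4H replicate 3 was close to CON replicate 3, and the means were 0.359 ± 0.12 and 0.617 ± 0.15 FPKM, a ratio of 1.72. Its mean over the 6 libraries, 0.488 FPKM, was just below the filter, and Car9 shares exon bases with Gm12454 on the other strand. Car12 (ENSMUSG00000032373, chr9:66713686-66766845, plus strand) was at 0.256, 0.193 and 0.260 FPKM in the CON libraries and 0.258, 0.221 and 0.375 FPKM in the 4H libraries. Its groups overlapped, and its ratio of means was 1.20 over all libraries and 1.01 without 4H replicate 3.

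Car14 (ENSMUSG00000038526, chr3:95897768-95904691, minus strand) and Car4 (ENSMUSG00000000805, chr11:84957786-84966044, plus strand) were at the bottom of the range. Car14 was listed at 0, 0 and 0.0246 FPKM in the CON libraries and at 0.0926, 0.0518 and 0 FPKM with stretch. The groups overlapped, the ratio of means, 5.86, rests on a single CON library above 0 and was 3.15 without 4H replicate 1 and 8.80 without 4H replicate 3, and Car14 shares exon bases with Aph1a on the other strand. Car4, the enzyme anchored to the membrane by a lipid, was listed at 0 in all 6 libraries.

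The order of the levels changed at the place of Car6. In the CON group it was Car13, Car6, Car5b, Car8, Car2, Car9, Car12, Car3, Car14 and Car4, from high to low. The neighbours Car2 and Car9, Car12 and Car3, and Car14 and Car4 overlapped between libraries, and the other neighbours did not. In the 4H group Car6 moved to the fourth place, behind Car5b and Car8, where it overlapped with Car2, and Car3 stood before Car12. Car2 and Car9, Car3 and Car12, and Car14 and Car4 overlapped there too.

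**Figure D2:**
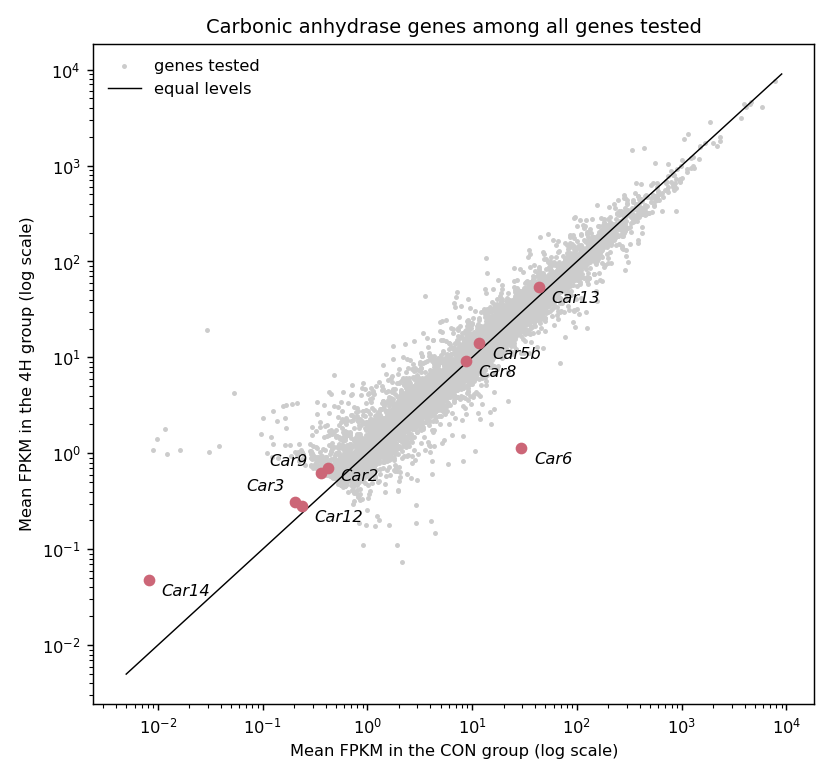
Mean FPKM in the CON group (horizontal axis) and in the 4H group (vertical axis), both on log scales, for the genes tested in grey and the carbonic anhydrase genes of the set in red. Genes with a mean of 0 in a group, Car4 among them, cannot be drawn. Car6 lies far below the line of equal levels at 29.5 and 1.15 FPKM, while Car13, Car5b and Car8 lie close to it.

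Counted over the set, 8 of the 10 genes were above 0 in all 6 libraries, and 5 passed the filter at a mean of 0.5 FPKM and so entered the fit over all genes. With limma and Benjamini-Hochberg adjustment, a gene was called if its log2 fold change was 1 or more in either direction and its adjusted p no higher than 0.05. The counts that follow describe the set and are no test of it, because the same comparison chose it and the place of Car6 was fixed by that choice. In this fit 1 of the 5, Car6, lay past both thresholds, where 3.88% of all genes tested did in either direction and 1.28% did so lower in the 4H group. At the adjusted p alone, 3 of the 5 were past it, against 46.7% of all genes, 1 lower against 24.1% and 2 higher against 22.6%. The groups did not overlap in 4 of the 5, against 56.7% of all genes tested. Over all 10 genes, the groups did not overlap in 5, of which 4 were higher and 1 lower in the 4H group. The 56.7% covers only genes past the filter, so this count has no matching share beside it. The median log2 difference of the 5 was 0.25, against -0.01 over all genes tested. Nothing is read from these counts.

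The 4 genes with mean levels between 0.1 and 1 FPKM, Car2, Car9, Car12 and Car3, were all higher in the 4H group by their means, with a median ratio of 1.60, and for 2 of them every 4H library was above every CON library. Low rows of the table leaned the same way. Of the 2137 rows in this range, 65.8% had a higher mean in the 4H group, 28.6% had every 4H library above every CON library, and the median ratio was 1.22. The number of rows above 0 was also higher in the 4H libraries, and its part in the ratios of these low genes was not tested.

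The 6 carbonic anhydrase genes outside the set were low. Car11, a related protein without the enzyme activity, was at 1.28, 0.923 and 0.825 FPKM in the CON libraries and 1.28, 0.987 and 0.589 FPKM in the 4H libraries, a log2 difference of -0.07 that did not pass the test (adjusted p = 0.799 from limma). Car7, an enzyme of the cytosol, was at 0.141, 0.192 and 0.174 FPKM in the CON libraries and 0.0797, 0.0583 and 0.158 FPKM in the 4H libraries, below the filter and with overlapping groups. Car1, Car5a and Car15 were listed at 0 in at least 1 library of each group and stayed under 0.1 FPKM, and Car10 was listed at 0 in all 6.

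Summed by the place of the protein over all 16 genes, the carbonic anhydrase transcripts came to 99.6, 93.3 and 94.1 FPKM in the CON libraries and 82.8, 81.3 and 82.2 FPKM in the 4H libraries. The means were 95.7 ± 3.44 and 82.1 ± 0.78 FPKM, a ratio of 0.858. The secreted class, which is Car6 alone, held 30.7 ± 2.75% of the sum in the CON group and 1.40 ± 0.79% in the 4H group. The cytosolic class was 44.2 ± 0.88 and 55.8 ± 0.51 FPKM and its share 46.3% and 68.0%, of which Car13 alone gave 45.4 ± 1.42% and 66.6 ± 0.19%. The total was 13.6 FPKM lower in the 4H group, where Car6 alone was 28.3 FPKM lower and the cytosolic class 11.6 FPKM higher.

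The smaller classes kept their order. The mitochondrial class held 12.3% of the sum in the CON group and 17.1% in the 4H group, and the related proteins held 10.1% and 12.3%. The cell surface class was 0.521, 0.545 and 0.773 FPKM in the CON libraries and 0.909, 1.06 and 0.960 FPKM in the 4H libraries. Its groups did not overlap, its ratio was 1.59, and its share was 0.643% in the CON group and 1.19% in the 4H group. Most of this came from Car9, whose mean was 0.258 FPKM higher, against 0.362 FPKM for the class. Low rows of the table leaned the same way, as given above. A share can be higher because another class is lower, so the shares are read beside the FPKM.

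**Figure D3:**
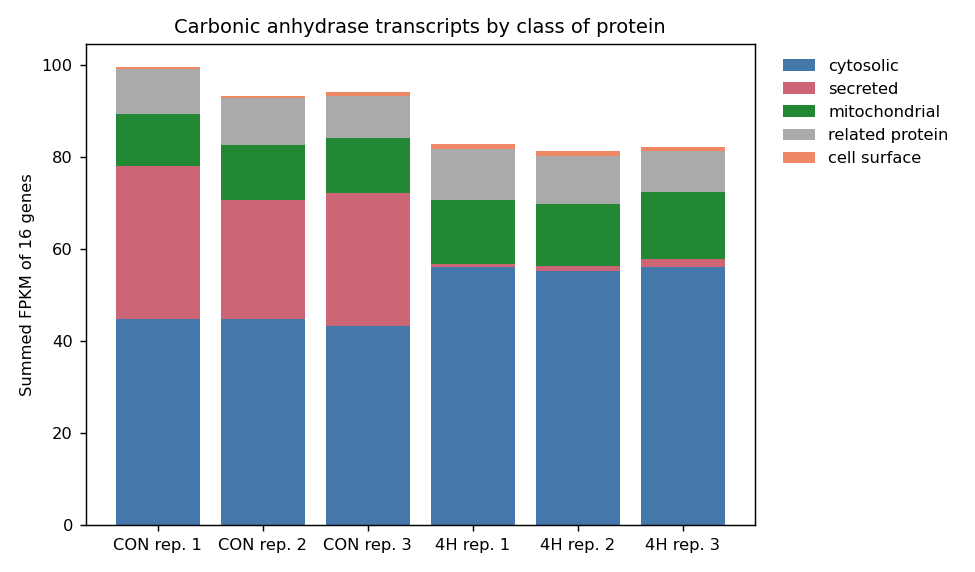
Summed FPKM of 16 carbonic anhydrase genes in each library (vertical axis, from 0), stacked by the place or kind of the protein. The secreted class, Car6, nearly vanishes in the 4H libraries, the cytosolic class is higher there, and the total is 93.3 to 99.6 FPKM in the CON group and 81.3 to 82.8 in the 4H group.

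The transcription factors that are known to act on genes of this family were read next. Ddit3, which encodes CHOP, was at 94.7, 90.2 and 93.9 FPKM in the CON libraries and 31.7, 32.6 and 30.3 FPKM in the 4H libraries. It fell by 1.54 on the log2 scale (SE 0.04, adjusted p = 8.18e-08 from limma). A second gene of the annotation with the symbol Ddit3 shares exon bases with it on the same strand, and the row at 0 in all libraries was left out. Atf4, the factor upstream of CHOP in the integrated stress response, went from 416 ± 3.90 to 198 ± 13.2 FPKM, a fall of 1.07 (adjusted p = 9.06e-07 from limma). Cebpb, a partner of CHOP, went from 42.6 ± 3.21 to 24.3 ± 1.71 FPKM, and its log2 fold change of -0.80 passed the adjusted p (3.71e-05 from limma) but not the fold threshold. Cebpb shares exon bases with Tmem189 on the other strand.

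For the HIF genes, Hif1a, the oxygen-regulated subunit, went from 73.3 ± 2.38 to 95.6 ± 1.89 FPKM, or 0.38 on the log2 scale (adjusted p = 5.25e-05 from limma), under the fold threshold. Its partner Arnt had a log2 fold change of -0.14 that did not pass the test (adjusted p = 0.113 from limma). Epas1, which encodes the related HIF-2α, was below the filter, with means of 0.0035 and 0.0827 FPKM and every 4H library above every CON library.

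The list of the CHOP and ATF4 stress response held 24 genes besides Car6, and all were tested. Of these, 14 were called, all lower in the 4H group, where 1.28% of all genes tested were called lower and 3.88% in either direction. At the adjusted p alone, which 46.7% of all genes passed, 22 were lower and 2 higher, Tnfrsf10b (0.17) and Dnajc3 (0.38), which encode a death receptor and a chaperone of the endoplasmic reticulum. Of the lower genes, Tenm4 passed the filter only through the CON group, with means of 0.891 and 0.332 FPKM, so its fall supports nothing. The median log2 fold change was -1.12, against -0.01 over all genes tested. This list was assembled with the fall of several of its genes known, so its direction is not independent evidence.

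The called genes of the list with the largest changes were enzymes, a receptor and a regulator. Cth, which makes cysteine from cystathionine, went from 68.8 ± 2.71 to 8.69 ± 0.96 FPKM (log2 fold change -2.92, SE 0.08, adjusted p = 8.57e-08 from limma). Vldlr, a lipoprotein receptor, went from 10.8 ± 0.79 to 1.05 ± 0.13 FPKM (-2.86, adjusted p = 2.62e-07). Aldh1l2, a mitochondrial enzyme of folate metabolism, went from 124 ± 3.02 to 20.1 ± 0.79 FPKM (-2.60, adjusted p = 1.73e-08). Trib3, a pseudokinase induced by CHOP, went from 96.1 ± 2.44 to 20.5 ± 2.62 FPKM (-2.21, adjusted p = 4.9e-07).

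Relative to its CON mean, Car6 was at 0.0182, 0.0364 and 0.0621 in 4H replicates 1, 2 and 3, below every gene of the stress response drawn beside it. Ddit3 was at 0.341, 0.351 and 0.326, Trib3 at 0.235, 0.223 and 0.183, Cth at 0.127, 0.140 and 0.112, and Asns, the asparagine synthetase drawn as a well-known ATF4 target, at 0.280, 0.290 and 0.276. The libraries of the 4H group differed more in Car6 than in these genes. The order of the libraries was not shared, since 4H replicate 3 was highest in Car6 and lowest in Ddit3, Trib3, Cth and Asns. Car6 was at only 0.537 to 1.83 FPKM in these libraries, with an unknown counting error, and the other genes were higher. Nothing is read from its spread or order.

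**Figure D4:**
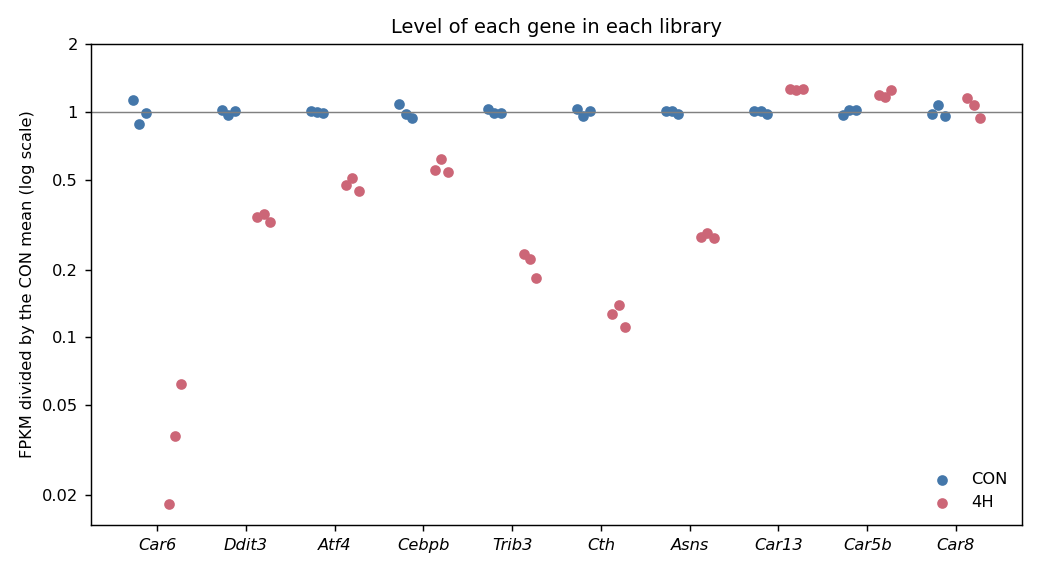
FPKM of each gene in each library divided by the mean of its CON libraries (vertical axis, log scale), for Car6, 6 genes of the CHOP and ATF4 stress response, Car13, Car5b and Car8. The 4H points of Car6 lie between 0.0182 and 0.0621, below those of Cth at 0.112 to 0.140, and those of Car13 lie at 1.25 to 1.27.

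The list of 19 HIF targets, which holds neither Car9 nor Car12, had 2 called genes, both lower in the 4H group, where 3.88% of all genes tested were called. Ndrg1, a gene of the response to stress and differentiation, had a log2 fold change of -1.61 (adjusted p = 8.56e-08 from limma), and shares exon bases with 2 genes on the other strand. Ero1a, an oxidase of the endoplasmic reticulum that is also known as a CHOP target, had one of -1.37 (adjusted p = 1.88e-07). At the adjusted p alone, 9 were higher and 2 lower, and 8 did not pass, where 22.6% of all genes were higher and 24.1% lower. The median log2 fold change was 0.24. Egln3, which encodes an oxygen-sensing prolyl hydroxylase, lay just under the fold threshold (0.98, adjusted p = 2.94e-05 from limma), going from 8.08 ± 0.84 to 16.4 ± 0.86 FPKM, and 3 genes of the list were called with a pseudocount of 0.1, with TPM, or without CON replicate 2 or 4H replicate 2. Car9 and Car12, the HIF targets of the set, had ratios of mean FPKM of 1.72 and 1.20, at levels below 1 FPKM.

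The transporters that move bicarbonate across the membrane were read as partners of the enzymes. Of 20 genes of the Slc4 and Slc26 families, 11 were tested and 1 was called, where 3.88% of all genes tested were. Slc4a10, a sodium-coupled bicarbonate transporter, was at 1.35, 1.18 and 1.35 FPKM in the CON libraries and 0.133, 0.208 and 0.260 FPKM in the 4H libraries (log2 fold change -1.36, adjusted p = 0.000107 from limma). It passed the filter only through the CON group, where it is high, so it had to differ and its call supports nothing about the list. It was not called with a pseudocount of 1 or a filter at 1 FPKM. At the adjusted p alone, Slc4a2, Slc4a8, Slc26a2 and Slc26a10 were higher, by 0.22, 0.50, 0.21 and 0.39, and 6 genes did not pass, so that 5 of 11 passed, a share near the 46.7% of all genes. The median log2 fold change of the 11 was 0.21.

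The exporters of protons and lactate showed no call under the main settings, where 3.88% of all genes tested were called. Of 16 genes, 11 were tested, and at the adjusted p alone 4 were higher and 2 lower, with a median of 0.18, and these 6 of 11 are also near the 46.7% of all genes (8 had an unadjusted p under 0.05). Slc16a3, the lactate exporter MCT4, was at 3.63, 5.96 and 3.29 FPKM in the CON libraries and 8.60, 8.00 and 9.12 FPKM in the 4H libraries, a log2 fold change of 0.96 (SE 0.18, adjusted p = 0.00307 from limma). CON replicate 2 was the highest of the CON libraries, and the groups did not overlap. Slc9a2, a sodium-proton exchanger, went from 1.75 ± 0.08 to 3.71 ± 0.34 FPKM, higher by 0.90 on the log2 scale (adjusted p = 0.000139 from limma). The 2 lower genes were Slc9a9 (-0.84, adjusted p = 0.000325 from limma) and Slc16a1. Slc16a1 went from 60.7 ± 1.17 to 41.2 ± 0.14 FPKM (-0.55, adjusted p = 3.99e-06 from limma). Its mean was 19.5 FPKM lower in the 4H group, while that of Slc16a3 was 4.28 FPKM higher. With a pseudocount of 0.1 or values rescaled to TPM, 2 genes of the list were called.

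The subunits of the V-ATPase, the proton pump of lysosomes, had log2 fold changes between -0.39 and 0.40. Of the 17 listed, 16 were tested. None was called with limma under the main settings, where 3.88% of all genes tested were called, or under any alternative run. At the adjusted p alone, 5 were higher and 5 lower, where 22.6% of all genes were higher and 24.1% lower. The median log2 fold change was 0.02 (11 had an unadjusted p under 0.05). The largest differences were those of Atp6v0a2 (0.40, adjusted p = 0.000165 from limma) and Atp6v1b2 (-0.39, adjusted p = 6.87e-05). Of the enzymes that fix bicarbonate into metabolites, 6 were tested and none was called under the same settings, beside the same 3.88% of all genes. At the adjusted p alone, 5 of the 6 were lower, where 24.1% of all genes were. The median was -0.29 (6 had an unadjusted p under 0.05). Cad, which starts pyrimidine synthesis, went from 46.6 ± 0.94 to 35.7 ± 0.56 FPKM (-0.38, adjusted p = 5.33e-05 from limma). Pcca, a subunit of propionyl-CoA carboxylase, went from 11.8 ± 0.45 to 9.18 ± 0.40 FPKM (-0.35, adjusted p = 0.00146).

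**Figure D5:**
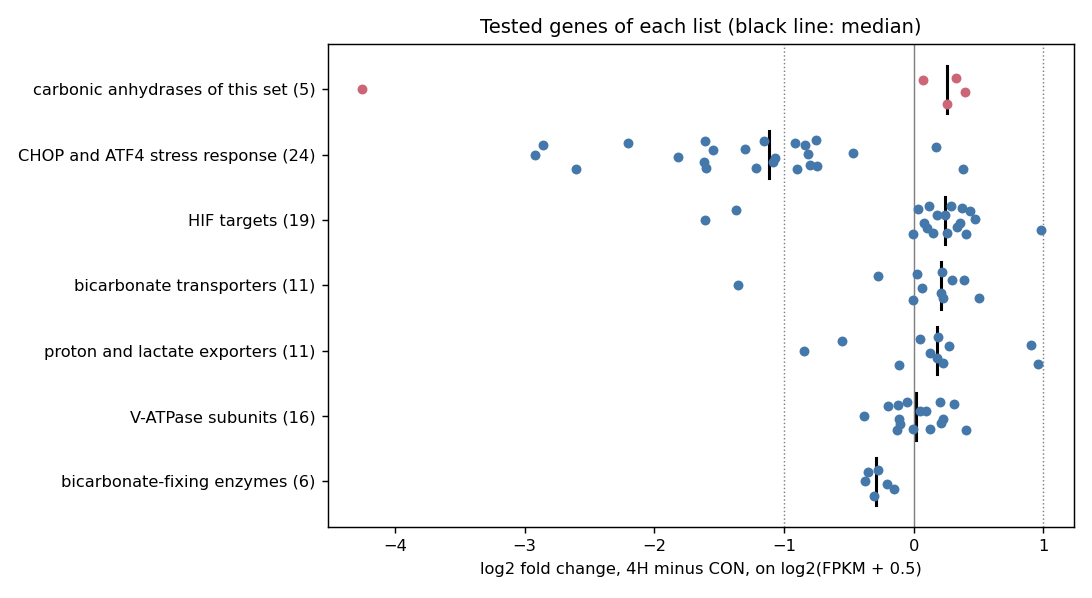
Log2 fold change of the 4H group against the CON group on log2(FPKM + 0.5) (horizontal axis) for the tested genes of each list, 1 point per gene, with a black line at the median, dotted lines at the fold threshold and the number of tested genes in parentheses. The marker lists, the regulators and the carbonic anhydrase genes outside the set are not drawn. Car6 lies at -4.26, and the genes of the CHOP and ATF4 stress response have a median of -1.12. The other lists drawn have medians between -0.29 and 0.24.

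The genes whose pattern over the 6 libraries was most like that of Car6 were found among the 10888 genes that averaged 1 FPKM or more, by the root mean square difference of log2 values centred on each gene's mean. They were P2rx3 (0.756), Cth (0.778), Vldlr (0.812), Elmo1 (0.861) and Cox6a2 (0.869). P2rx3, which encodes an ATP-gated channel, went from 4.44 ± 1.00 to 0.150 ± 0.04 FPKM. Elmo1, a regulator of Rac signalling, went from 8.12 ± 0.55 to 0.824 ± 0.07 FPKM, and Cox6a2, a muscle subunit of cytochrome oxidase, from 4.08 ± 0.62 to 0.198 ± 0.10 FPKM. The likeness rests mainly on the difference between the groups, which chose Car6.

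Markers of other cell types were low and moved with the groups. The summed level of 6 epithelial markers, the kind of cell that secretes Car6, ran from 2.91 to 4.05 FPKM over the CON libraries and from 5.38 to 6.09 over the 4H libraries, most of it Krt14, with Epcam at 0 in all libraries. The summed level of 5 erythroid markers was 2.44 to 3.10 and 7.81 to 9.68 FPKM, with Hba-a1 called higher and Hbb-bs at 0. That of 5 macrophage markers was 0.0446 to 0.117 and 1.01 to 1.57 FPKM, most of it in the 4H group Csf1r, which was at 0.00906 and 1.08 FPKM in the group means and passed the filter only through the 4H group, with Ptprc and Adgre1 at 0. The 4 endothelial markers summed to 0.057 to 0.112 and 0.147 to 0.261 FPKM. All of these sums were higher in the 4H group while Car6 was lower, and their part in the low carbonic anhydrase genes that were higher was not tested.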

How the data were processed

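Poly(A) RNA of C2C12 cells was sequenced as paired ends from strand-specific libraries, 3 in the CON group and 3 in the 4H group, by the treatment labels. The authors deposited 1 table of FPKM values, with a column per library. The submitters' processing notes name build mm10, and the aligner, the counting tool and the use of strand were not given in the sources used here. FPKM holds no depth, so precision rests on the spread of 3 libraries.

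Members were matched by symbol. Log2(FPKM + 0.5) was fitted with limma 3.58.1 in R 4.3.3 (eBayes with a trend, two-sided, no replicate block) for the 11593 genes that averaged 0.5 FPKM or more, with Benjamini-Hochberg adjustment, and the study's thresholds for calls. FPKM is not a count, so the study's count model was not used. For 3 libraries against 3 the smallest two-sided exact permutation p is 0.1, so no such test was run. The fit was tested on simulated data: with 200 of 11528 genes changed by 2 on the log2 scale, 95.5% were recovered and 1.04% of calls were false. The other genes were simulated without change. The simulation therefore says nothing about smaller changes or about counts at the adjusted p alone.

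The members and gene lists were chosen with earlier results of these data known. Named were all carbonic anhydrase genes, the regulators, at most 4 called genes per list (or, with none, the 2 with the largest change) and the 5 genes most like Car6. Tnfrsf10b, Dnajc3, Tenm4, Slc4a2, Slc4a8, Slc26a2, Slc26a10, Slc9a9, Slc16a1, Egln3, Asns and the markers named are outside the rule. All of these but the markers were picked once their values had been seen. Positions and coding sequences came from GENCODE M21 (22017 of 22128 Ensembl identifiers of the table matched) and promoters from RefSeq. Pc, of the 9 enzymes that fix bicarbonate, was not analysed here. Python 3.11.15, pandas 2.3.3, Biopython 1.88 and matplotlib 3.10.9 were used. Alternatives were pseudocounts of 0.1 and 1, no filter or a filter at 1 FPKM, TPM, median-of-ratios and quantile scaling, a replicate block, eBayes without a trend, each library left out, and the log2 ratio of mean FPKM.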

Additional observations from a re-analysis of the deposited data

How the results depend on the processing

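Of 115 values of the members under the alternatives, 107 lay within 1 SD of the reported value, 8 moved and 0 reversed. The SD of Car14 was larger than its ratio of 5.86, so no value of it could count as moved, although the ratio ran from 3.15 to 8.80 with 1 library left out and has no value without CON replicate 3. The log2 difference of Car2 was 0.65 with a pseudocount of 0.1, 0.59 with TPM, 0.23 with quantile normalization and 0.76 as the log2 ratio of mean FPKM, that of Car6 was -4.70 with a pseudocount of 0.1, and that of Car13 was 0.37 with TPM and 0.36 with quantile normalization. The number of genes called was 450, and was 703 with TPM. Of the proton and lactate exporters 0 were called, against 2 with a pseudocount of 0.1, 2 with TPM, and 0 to 1 with each library left out, where 1 was called without CON replicate 2 and without 4H replicate 2. Of the HIF targets 2 were called, and 3 with a pseudocount of 0.1, TPM, the block on title numbers described next, or without CON replicate 2 or 4H replicate 2. Of the bicarbonate transporters 1 was called, and 0 with a pseudocount of 1 or a filter at 1 FPKM. The cause of these shifts was not tested. The biosample numbers did not pair the libraries, since the correlations of same-numbered deviations from the group means were 0.02, -0.09 and -0.13, and the replicate block on them gave 452 called genes. By the numbers in the titles, 2 pairs are shared, with correlations of 0.02 and 0.18. A replicate block on these numbers, chosen after seeing the data and resting on 4 libraries, gave 460 called genes and 3643 past the adjusted p alone, against 5409 with no block, with 1 proton and lactate exporter called and a log2 difference of Car8 of 0.20. FPKM gives no depth, so values below 1 FPKM have an unknown counting error.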
